A study of Mus musculus with 10 samples.

Results

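The 10 transcripts described here encode the membrane-scission machinery that seals holes in the nuclear envelope: the ESCRT-III subunits Chmp1a, Chmp1b, Chmp2a, Chmp2b, Chmp3, Chmp4b and Chmp7, the ATPases Vps4a and Vps4b, and the nuclear membrane adaptor Lemd2. They were chosen by gene symbol, under a rule that uses no measured value, and all 10 were found among the 57010 gene identifiers of the table. All 10 met the minimum set for testing, a normalized read count of 10 on average, as did 12455 genes in all.

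Expression was measured by RNA sequencing in 10 libraries of primary mouse macrophages (BMDM), obtained by culturing precursor cells of the bone marrow. Marrow came from wild-type (WT) mice or from WASp KO mice (WKO), and cells of both genotypes were differentiated for 7 days with 20 ng/mL of the macrophage growth factor M-CSF. Confined cells were held for 1 h at a height of 3 µm by PDMS (silicone) micropillars, and unconfined cells are labelled as controls; the labels do not say whether these were placed in the same device without pressure. There were 2 WT unconfined, 2 WKO unconfined, 3 WT confined and 3 WKO confined libraries, named below by the replicate number in their titles. The labels give no age, sex or strain of the mice and do not say whether replicates came from separate mice, so that p-values measure the spread between these libraries, which may be technical.

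As background, ESCRT-III proteins are soluble monomers that polymerize into spiral filaments on the inner face of membrane necks. At a ruptured or reforming nuclear envelope, the inner nuclear membrane protein LEMD2 recruits CHMP7, which seeds CHMP4B filaments. CHMP2A, CHMP3 and CHMP1 proteins then join, and the VPS4 ATPases pull subunits out of the filament until the hole is closed. Nuclear rupture and its repair are studied in cells that are squeezed through narrow spaces. WASp, the product of Was, activates branched actin assembly in blood cells. The title of the series names nuclear envelope rupture, inflammation and WASp-driven actin polymerization as its subject.

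Depth ranged from 13295701 to 19329908 reads per library, and mitochondrial genes took between 1.11% and 1.96% of them. The transcript of Was was present at 1338 to 2053 reads in WT and 92 to 156 reads in WKO libraries (log2 fold change -3.30 without confinement, limma adjusted p 4.38e-06, and -3.91 with it, 5.99e-08). All 8 macrophage markers were tested, and their summed normalized read count lay between 179561 and 208283 in WT and between 241895 and 314561 in WKO libraries. The WKO confined libraries were more dispersed than the others. The median standard deviation (SD) of a gene was 0.27 on the log2 scale there, against 0.12 to 0.16 in the other groups. In bulk RNA, fewer cells of a type and less RNA per cell cannot be told apart.

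None of the 10 genes passed the threshold, a limma adjusted p under 0.05, for WASp loss or for confinement. In unconfined cells 0 of 10 passed between WKO and WT, against 0.145% of all tested genes. In confined cells 0 of 10 passed between the genotypes, against 2.59% of all genes. After confinement 0 of 10 passed in WT cells, where 1.16% of all genes did, and 0 of 10 in WKO cells, where 1.72% did. For the interaction (the effect of confinement in WKO cells less its effect in WT cells) 0 of 10 passed, and the background was 0% of all genes. With the conditions averaged, 0 of 10 passed between the genotypes (5.57% of all genes), and with the genotypes averaged 0 of 10 passed after confinement (6.21%). At these background shares 10 genes would hold fewer than 1 call in each of the 7 comparisons, so that the counts of 0 are near the background.

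At an unadjusted p under 0.05, limma gave 1 of the 10 genes in confined cells between genotypes, where 16.8% of all genes were under it. It also gave 1 with the conditions averaged, against 20.2% of all genes; the gene was Chmp2a in each case. In the other 5 comparisons 0 of 10 were under it. The shares of all genes there were 9.6% between genotypes in unconfined cells, 12.2% and 14.1% after confinement in WT and WKO, 2.07% for the interaction and 21.6% after confinement with the genotypes averaged. The 10 genes were thus at or below the background.

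The quasi-likelihood test of edgeR called 0 of 10 in all 7 comparisons. In the order used above it called 0.12%, 2.56%, 0.931%, 1.49%, 0%, 5.59% and 6.29% of all genes. DESeq2 called 1 of 10, Chmp2a, between genotypes with the conditions averaged, where it called 9.21% of all genes. In the other 6 comparisons it called 0 of 10, against 1.44%, 6.22%, 2.67%, 3.9%, 0% and 9.79% of all genes in the same order.

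The intervals of the differences were narrow enough to bound their size. After confinement in WT cells, the 95% intervals of all 10 genes lay within a 1.5-fold change in either direction, and in WKO cells those of 9 did, with Chmp1b reaching 1.51-fold higher. Between genotypes the intervals of 8 genes lay within 1.5-fold in unconfined cells and those of 10 in confined cells. For the interaction 7 lay within 1.5-fold, and all 10 lay within 2-fold in every comparison. These intervals are for each gene alone and are not adjusted for the number of genes.

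**Figure D1:**
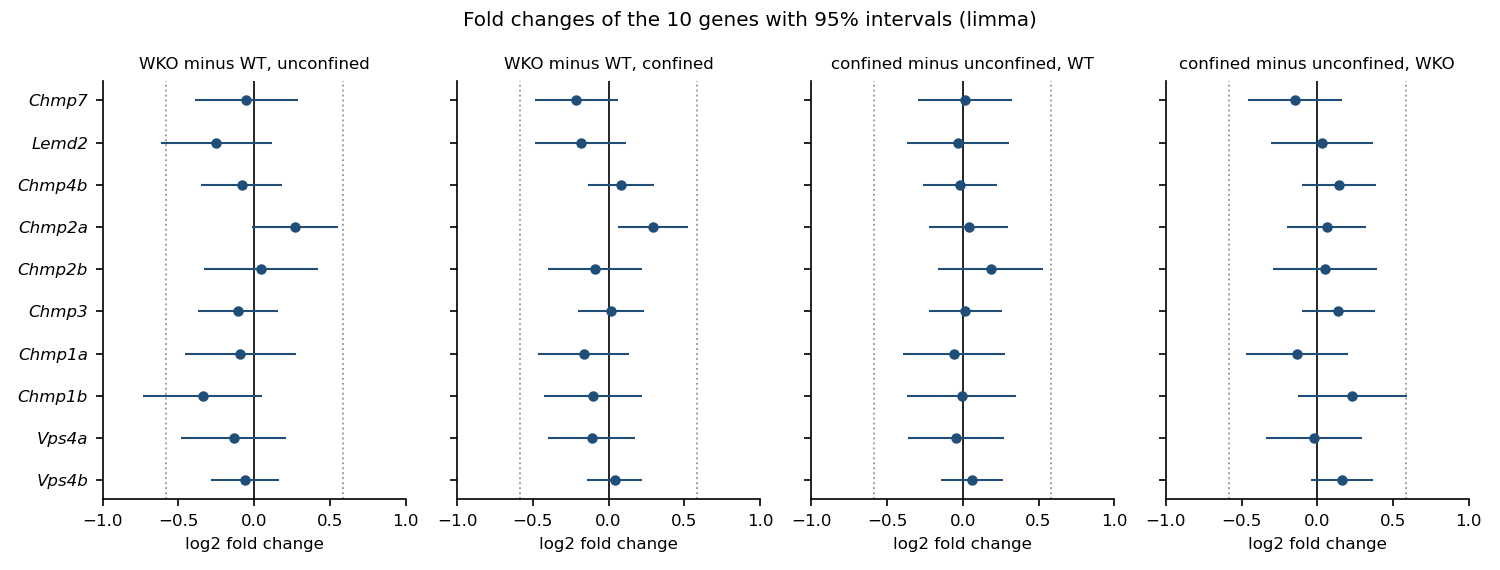
Log2 fold change (horizontal axis) of each of the 10 genes in 4 comparisons, with limma 95% intervals as bars; dotted lines mark a 1.5-fold change in either direction. The interval of Chmp2a in confined cells is the only 1 of the 40 that does not cross 0, and the widest reach is that of Chmp1b in unconfined cells.

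The nuclear envelope adaptor pair comes first in the pathway. Chmp7 (ENSMUSG00000034190, chromosome 14, 69717000 to 69732541 on the reverse strand, GRCm38) encodes the hybrid ESCRT-II and ESCRT-III protein that starts assembly at the nuclear envelope. Its normalized read count was 1054 and 1083 in WT unconfined libraries (replicates 1 and 3), 1036 and 1025 in WKO unconfined (1 and 3), 1122, 1039 and 1078 in WT confined (2, 3 and 6) and 1129, 893 and 802 in WKO confined (1, 2 and 5). The first 3 groups were tightly placed, while the WKO confined group held both the highest and the lowest of the 10 values. The log2 fold change was 0.01 after confinement in WT (standard error, SE, 0.142) and -0.15 in WKO (SE 0.142), with limma adjusted p of 0.983 and 0.688.

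Lemd2 (ENSMUSG00000044857, chromosome 17, 27189600 to 27204469, reverse strand) encodes the LEM-domain protein of the inner nuclear membrane that binds CHMP7. It was at 941 and 1135 in WT unconfined, 848 and 892 in WKO unconfined, 960, 982 and 1092 in WT confined, and 1052, 895 and 745 in WKO confined libraries, in the same order of replicates. Its mean was lower in WKO than in WT in both conditions, with overlap between the 5 WKO and 5 WT libraries (log2 fold change -0.25 and -0.18, limma adjusted p 0.707 and 0.559). With the conditions averaged it was -0.22 (SE 0.109, limma adjusted p 0.296), a difference within the error.

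Chmp4b (ENSMUSG00000038467, chromosome 2, 154651705 to 154694785, forward strand) encodes the main filament-forming subunit. Its values were 2627 and 3201 in WT unconfined, 2719 and 2764 in WKO unconfined, 2737, 2882 and 2969 in WT confined, and 3196, 2883 and 3029 in WKO confined libraries. The 2 WT unconfined libraries spanned the whole range of the other 8. The log2 fold change with confinement was -0.02 in WT and 0.15 in WKO (SE 0.112 each, limma adjusted p 0.967 and 0.602).

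**Figure D2:**
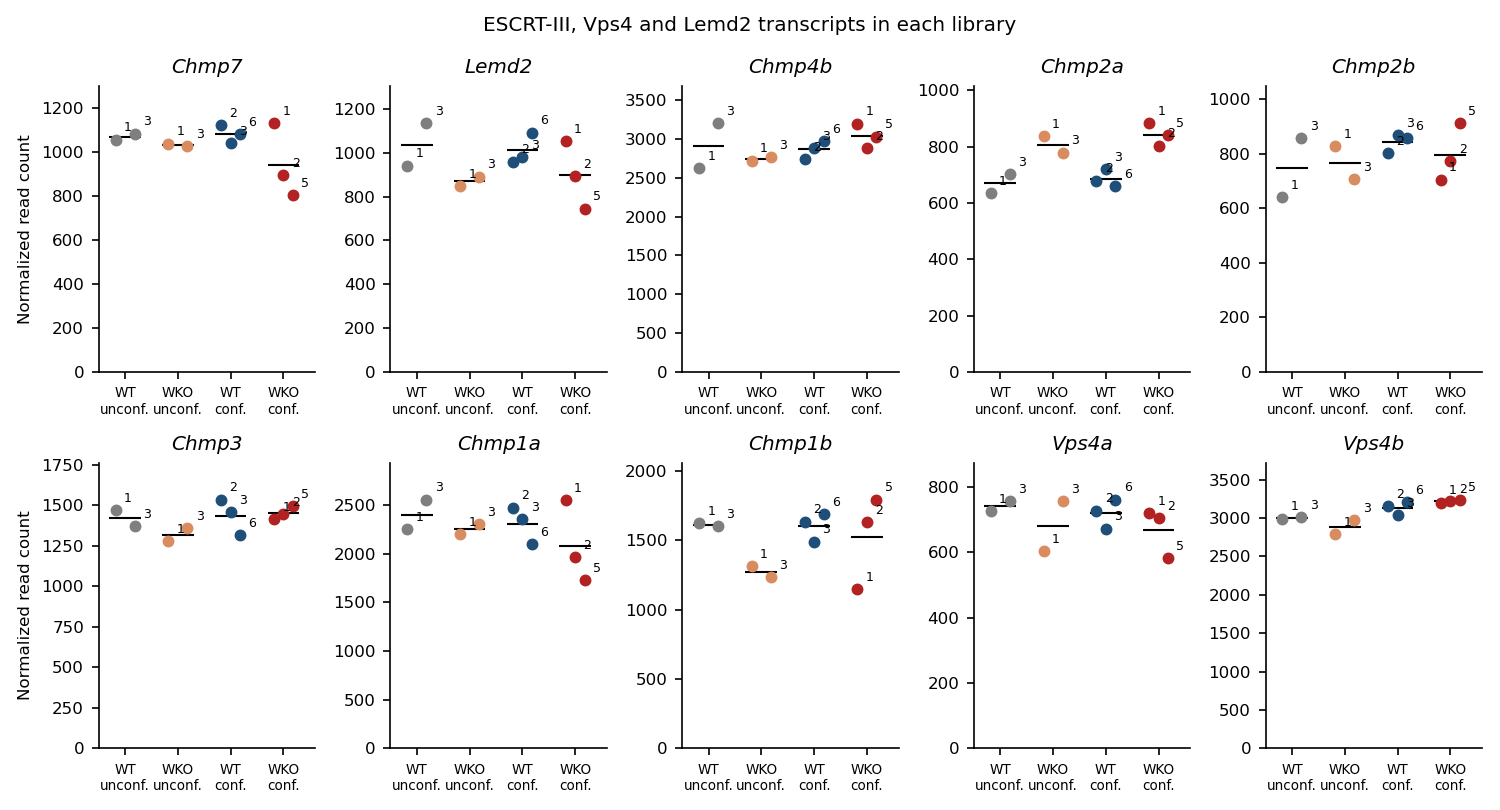
Normalized read count (vertical axis, from 0) of each of the 10 genes in the 10 libraries, grouped by genotype and condition; points are libraries with their replicate number and bars are group means. Chmp2a is higher in all 5 WKO than in all 5 WT libraries, and WKO confined replicates 1 and 5 lie at opposite ends for Chmp7, Lemd2, Chmp1a and Chmp1b.

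Of the 10 genes, Chmp2a was the only one whose 5 WKO and 5 WT libraries did not overlap. Chmp2a (ENSMUSG00000033916, chromosome 7, 13032010 to 13034807, reverse strand) encodes a subunit that joins CHMP4B filaments, remodels them and binds VPS4. It was at 636 and 703 in WT unconfined, 837 and 778 in WKO unconfined, 679, 721 and 660 in WT confined, and 883, 804 and 841 in WKO confined libraries. All 5 WKO libraries were above all 5 WT libraries. With values corrected for GC content and length, the genotypes nearly touched. The highest WT library, confined replicate 3, was then at 9.489 on the log2 scale. The lowest WKO library, unconfined replicate 3, was at 9.490. Without this correction, a lack of overlap of 5 against 5 libraries in either direction was found for 836 genes, or 6.71% of those tested. It was found for 1 of the 10 described here. In unconfined cells alone, 2 against 2 libraries, 6 of the 10 did not overlap (Chmp2a above in WKO, and Chmp1b, Chmp3, Chmp7, Vps4b and Lemd2 below), against 44.9% of all genes.

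The group means of Chmp2a in unconfined cells were 669 ± 48.0 for WT and 807.5 ± 41.2 for WKO (SD, n = 2 each). In confined cells they were 687 ± 31.3 and 843 ± 39.6 (SD, n = 3 each). The log2 fold change was 0.27 (SE 0.130) in unconfined and 0.29 (SE 0.107) in confined cells, with limma adjusted p of 0.555 and 0.183. Averaged over the conditions it was 0.28 (95% interval 0.10 to 0.47, SE 0.0842, unadjusted p 0.00585), a 1.22-fold difference with a limma adjusted p of 0.0762. DESeq2 gave an adjusted p of 0.0418 and limma with array weights, which give each library its own weight, gave 0.0360; these fits called 1147 and 1804 of all genes. Over all 22 alternatives to the averaged fit the fold change stayed between 0.25 and 0.32, and the adjusted p ran from 0.0360 to 0.236.

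Summed levels of other cell types' markers also differed by genotype, in some lists with overlap. The 7 B-lineage markers summed to 414 to 892 in WT and 1613 to 5202 in WKO libraries, without overlap, as did the macrophage markers above. The 8 markers of neutrophils and their progenitors summed to 2542 to 10793 in WT and 6956 to 29739 in WKO libraries. The 8 stromal markers summed to 148 to 1420 in WT and 543 to 7042 in WKO libraries. Both of these lists overlapped between the genotypes. Their part in the Chmp2a difference was not tested. Confinement left Chmp2a at a log2 fold change of 0.04 in WT and 0.06 in WKO (SE 0.119 each).

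Chmp2b and Chmp3 encode the other subunits of this stage; mutations of human CHMP2B cause a form of frontotemporal dementia. Chmp2b (ENSMUSG00000004843) lay between 641 in WT unconfined replicate 1 and 912 in WKO confined replicate 5. Its largest fold change was 0.18 on the log2 scale, after confinement in WT (SE 0.158, limma adjusted p 0.696), where the unconfined libraries at 641 and 856 bracketed 1 of the 3 confined libraries. Chmp3 (ENSMUSG00000053119) lay between 1278 in WKO unconfined replicate 1 and 1535 in WT confined replicate 2, a 1.20-fold range over the 10 libraries. Its fold change after confinement was 0.01 in WT and 0.14 in WKO (SE 0.111 each, limma adjusted p 0.974 and 0.615). The ratio of Chmp2a to Chmp2b per length of transcript was 1.79 ± 0.236 in WT unconfined and 2.09 ± 0.126 in WKO unconfined (SD, n = 2 each), and after confinement 1.61 ± 0.0794 in WT and 2.12 ± 0.330 in WKO libraries (SD, n = 3 each).

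Chmp1a and Chmp1b encode the subunits that bind VPS4 and the microtubule-severing enzyme spastin. Chmp1a (ENSMUSG00000000743) was at 2250 and 2552 in WT unconfined, 2197 and 2303 in WKO unconfined, 2469, 2351 and 2095 in WT confined, and 2548, 1963 and 1724 in WKO confined libraries. Its lowest 2 values were WKO confined replicates 5 and 2, while replicate 1 of that group nearly reached the highest. The log2 fold change after confinement was -0.06 in WT and -0.13 in WKO (SE 0.154 each, limma adjusted p 0.916 and 0.742).

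Chmp1b (ENSMUSG00000109901), a gene with a single exon, was at 1624 and 1604 in WT unconfined, 1316 and 1235 in WKO unconfined, 1637, 1491 and 1691 in WT confined, and 1146, 1631 and 1794 in WKO confined libraries. WKO confined replicates 1 and 5 were the lowest and the highest of all 10, the reverse of their order in Chmp1a. In unconfined cells it had the largest fold change of the 10 genes between genotypes, -0.34 (SE 0.181, limma adjusted p 0.615). After confinement in WKO it was 0.23 (SE 0.165, limma adjusted p 0.576). The value moved with the libraries of the WKO confined group. Without replicate 1 it was 0.42 (adjusted p 0.0356, in a fit that called 1043 of all genes) and with array weights 0.33 (0.0479, in one that called 1735). Without replicate 5 it was 0.10 (adjusted p 0.883), and with the replicate number as a block it was -0.05 (0.974). The ratio of Chmp1a to Chmp1b per length of the longest coding transcript ran from 1.13 to 2.62 within the WKO confined group alone, and from 1.46 to 2.20 over the other 7 libraries.

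Vps4a and Vps4b encode the AAA ATPases that take the filaments apart. Vps4a (ENSMUSG00000031913) was at 727 and 756 in WT unconfined, 603 and 756 in WKO unconfined, 727, 672 and 761 in WT confined, and 719, 705 and 581 in WKO confined libraries, with overlap between genotypes in each condition and between conditions in each genotype. Its fold change after confinement was -0.04 in WT and -0.02 in WKO (SE 0.146 each). Vps4b (ENSMUSG00000009907, chromosome 1, 106764071 to 106796728, reverse strand) was at 2993 and 3011 in WT unconfined, 2791 and 2968 in WKO unconfined, 3152, 3041 and 3202 in WT confined, and 3199, 3220 and 3238 in WKO confined libraries. All 6 confined libraries were above all 4 unconfined ones. With values corrected for GC content and length this was lost. Unconfined libraries then lay between 11.49 and 11.65 on the log2 scale, and WKO confined replicate 5, at 11.44, was below them. A lack of overlap of 6 against 4 libraries in either direction was found for 920 genes, or 7.39% of those tested, and for 1 of the 10. The difference was small: averaged over the genotypes it was 0.11 on the log2 scale (95% interval -0.03 to 0.26, SE 0.0660, unadjusted p 0.119, limma adjusted p 0.360). The summed level of 6 early stress genes, which respond to handling, was 6095 to 9885 in unconfined and 14292 to 37265 in confined libraries, also without overlap. Their part in the Vps4b values was not tested.

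Per length of transcript, the 10 genes kept a stable order. Lengths were those of the longest coding transcript in GENCODE M21, so that levels are normalized read counts per kb (1000 bases) and depend on which isoform the cells use. Over the 10 libraries Chmp4b was at 1795 ± 122 (SD), Chmp1a at 1049 ± 123 and Chmp2a at 795 ± 90.4. Vps4b at 665, Chmp1b at 601 and Chmp3 at 533 followed, and the lowest were Chmp2b at 424, Chmp7 at 387, Lemd2 at 363 and Vps4a at 322.

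Chmp4b, the filament-forming subunit, was first in all 10 libraries and took 25.9% of the summed level. Chmp1a was above Chmp2a in 9 of 10 libraries, Chmp2a above Vps4b in 10, Vps4b above Chmp1b in 9, and Chmp3 above Chmp2b in 10. The lower neighbours were less clear. Chmp1b was above Chmp3 in 8 libraries, Chmp2b above Chmp7 in 7 and Chmp7 above Lemd2 in 7. The order of these pairs thus varied between libraries, and their differences were not tested. Lemd2 was above Vps4a in 9 libraries. Counted over all exon bases instead, Vps4b moved from 4th to 7th and Chmp7 from 8th to 10th, while the first 3 kept their places. Vps4a moved from 10th to 8th, above Lemd2 at 9th. Of the ATPase pair, Vps4b was above Vps4a in every library, by 2.08 ± 0.220 (SD, n = 10) per length of the longest coding transcript, from 1.85 to 2.62. Per length of all exon bases the ratio was 1.25 ± 0.133 (SD, n = 10), also above 1 in every library. The same change of length took the ratio of Chmp1a to Chmp1b from a mean of 1.80 to 1.17, above 1 in 7 of 10 libraries, and that of Chmp2a to Chmp2b from 1.89 to 1.59.

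**Figure D3:**
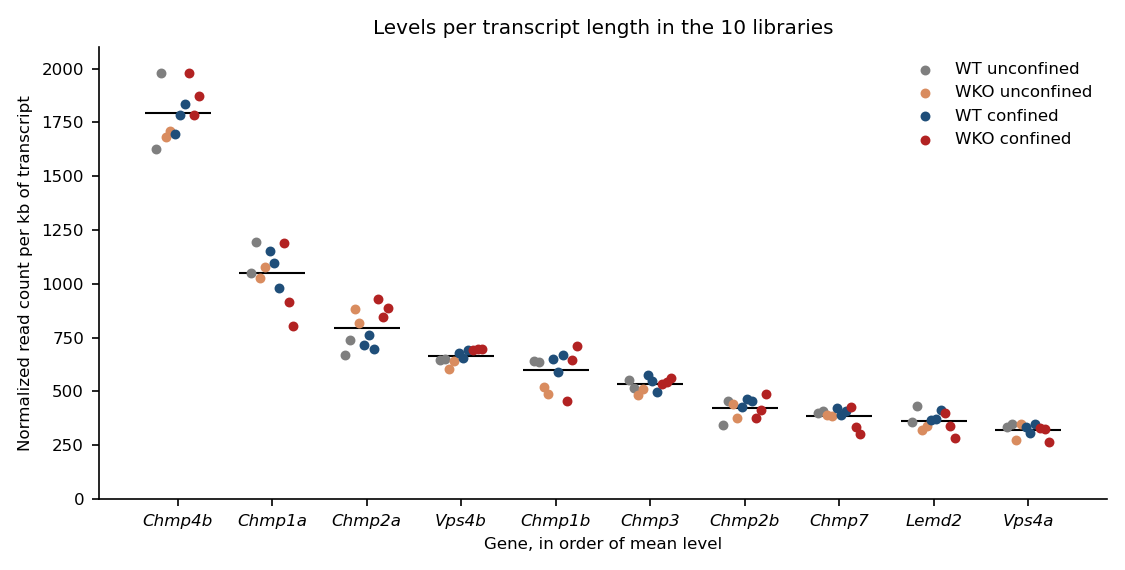
Normalized read count per kb of the longest coding transcript (vertical axis, from 0) of the 10 genes in order of mean level; points are the 10 libraries coloured by group and bars are means. Chmp4b is above all other genes in every library, and the 3 genes at the right overlap.

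The 10 transcripts varied less between libraries than most. Their coefficient of variation (CV, the SD as a percentage of the mean) over all 10 libraries ran from 4.70% for Vps4b to 14.1% for Chmp1b, with a median of 10.5%. The median over all tested genes was 18.7%, and over the 3335 genes with means in the range of the 10 it was 12.7%. Of the 10, 9 were below the second value. The highest library exceeded the lowest by 1.16-fold (Vps4b) to 1.56-fold (Chmp1b). Each gene had between 485 and 4077 reads per library, so that counting error alone gives a CV between 1.57% and 4.54%. This covers counting error only, because PCR reads without molecular identifiers are not independent molecules.

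The median SD of the 10 genes within a group was highest in WKO confined libraries, 0.18 on the log2 scale. It was 0.09 in WT unconfined, 0.06 in WKO unconfined and 0.08 in WT confined libraries. Only Chmp1a, Chmp1b, Chmp7 and Lemd2 had their highest SD in WKO confined libraries. Chmp2a, Chmp2b and Chmp4b were highest in WT unconfined (0.10, 0.29 and 0.20), against 0.07, 0.19 and 0.07 in WKO confined libraries. Vps4a and Vps4b were highest in WKO unconfined (0.23 and 0.06), against 0.17 and 0.01 in WKO confined libraries. Chmp3 was highest in WT confined (0.11) and lowest in WKO confined libraries (0.04). Deviations in the WKO confined group went with the GC content of the transcripts. Replicate 5 of that group held the lowest or the highest value for 7 of the 10 genes, against 41.1% of all tested genes. It was lowest for Chmp1a, Chmp7, Vps4a and Lemd2 and highest for Chmp1b, Chmp2b and Vps4b. The first 4 have GC contents of 56.2%, 54.1%, 51.6% and 64.1%, and the other 3 of 40.6%, 43.1% and 41.7%. Over the 10 genes the deviation of replicate 5 from the mean of all libraries had a Pearson r of -0.73 with GC content, and replicate 1 had one of 0.75 and replicate 2 of -0.57. These are descriptions over 10 genes that share their libraries.

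The same slope was present in all tested genes. Between the genes above the 75th and below the 25th percentile of GC content, the median deviation differed by 0.28 on the log2 scale in replicate 1, by -0.22 in replicate 2 and by -0.29 in replicate 5. Of the other 7 libraries, WT unconfined replicate 3 had the largest difference, 0.16. With values corrected for GC content and length, the SD within the WKO confined group went from 0.29 to 0.13 for Chmp1a, from 0.34 to 0.16 for Chmp1b, from 0.25 to 0.16 for Chmp7 and from 0.25 to 0.11 for Lemd2. The SD of Vps4b went from 0.01 to 0.22, that of Chmp2a from 0.07 to 0.18 and that of Chmp4b from 0.07 to 0.14. The median over the 10 went from 0.18 to 0.13, and 0 of 10 genes passed in any comparison after the correction. Replicate 5 also had the highest summed levels of the stromal markers (7042) and of the early stress genes (37265), and their part in its values was not tested.

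**Figure D4:**
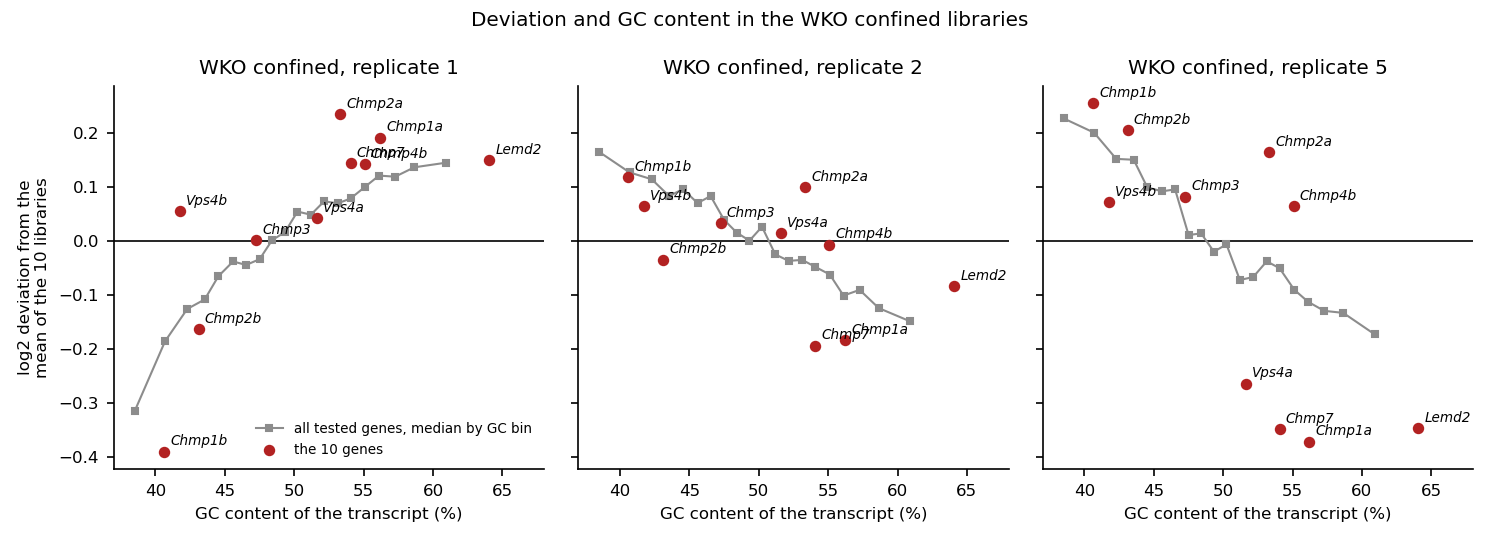
Deviation of each gene in the 3 WKO confined libraries from its mean over all 10 libraries (vertical axis, log2) against the GC content of its longest coding transcript (horizontal axis, percent); red points are the 10 genes, and the grey line joins medians of all tested genes in 20 GC bins. The line rises in replicate 1 and falls in replicates 2 and 5, and most of the 10 genes lie on the same side of 0 as the line.

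The 10 genes did not move as a block across libraries. Of their 45 pairwise correlations over the 10 libraries, 21 were above 0 and the median Pearson r was -0.05. The closest pair was Chmp1a with Chmp7 (r 0.91), followed by Chmp7 with Lemd2 and Vps4a with Lemd2 (0.78 each). The genes most like Chmp7 among those tested were 2210016F16Rik, 2610306M01Rik and Nars2 (r 0.97 each, n = 10 libraries), and 484 genes had an r above 0.8 with it. Those most like Chmp4b were Drap1 (r 0.93), Grsf1 (0.93) and Rnf130 (0.89), with 36 genes above 0.8. The libraries differ in GC slope as described, and these correlations share it.

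As a list, the 10 genes had median log2 fold changes between -0.09 and 0.06. Between genotypes the median was -0.09 in unconfined cells, with 8 of 10 below 0, and -0.09 in confined cells, with 6 below 0; over all genes both medians rounded to 0.00. After confinement it was 0.00 in WT, with 5 of 10 above 0, and 0.06 in WKO, with 7 above 0, against -0.01 over all genes in each. For the interaction it was 0.04, against 0.01. The mean log2 value of the 10 genes had an SD of 0.0465 between replicate libraries.

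Among 41 other genes of the pathway, 38 were tested, and Vps37b was the only one that passed the limma threshold in any of the 7 comparisons. They comprised 9 of 10 other ESCRT-III proteins and Vps4 cofactors, 13 of 15 subunits of ESCRT-0, -I and -II, all 5 ALIX and Bro1-domain adaptors, and all 11 partners in nuclear envelope reformation and repair such as Banf1, Emd and Lemd3. Chmp4c, a paralog of Chmp4b, had between 0 and 8 reads per library, Vps37d between 1 and 6 and Vps25 between 0 and 8. These 3 were left out by the minimum, and the exons of Vps25 overlap those of Ramp2.

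Vps37b (ENSMUSG00000066278, chromosome 5, 124004641 to 124032270, reverse strand) encodes a subunit of ESCRT-I, the complex that recruits later ESCRTs on endosomes and at the midbody. It was at 434 and 643 in WT unconfined, 334 and 318 in WKO unconfined, 786, 690 and 764 in WT confined, and 592, 672 and 663 in WKO confined libraries. The WKO unconfined libraries were the lowest of the 10, and WT unconfined replicate 3 reached into the confined range. In WKO it rose after confinement by 0.97 on the log2 scale (SE 0.166, limma adjusted p 0.0129). In WT the fold change was 0.50 (SE 0.166, limma adjusted p 0.232), and the difference between the genotypes was 0.48 (SE 0.235, limma adjusted p 0.999). Averaged over the genotypes it rose by 0.73 (SE 0.118, limma adjusted p 0.00364). Averaged over the conditions it fell in WKO by 0.46 (SE 0.118, limma adjusted p 0.0446).

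These calls of Vps37b differed in how they held. The rise in WKO did not pass with only the WKO libraries fitted (adjusted p 0.0678), without the mean-variance trend (0.0685), or without WKO unconfined replicate 1 (0.117) or 3 (0.145), and passed in the other 19 of 23 alternatives. The rise averaged over the genotypes passed in 21 of 22 alternatives and was lost with the replicate number as a block (0.62, adjusted p 0.0591). The genotype difference passed in 11 of 22 alternatives. Exons of Vps37b overlap those of Hip1r and Gm37939 on the opposite strand over 42.5% of their bases, and the use of strand in counting is not given in the sources used here, so that its values are uncertain.

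Over these lists as 1 group, 0 of 38 genes passed limma between genotypes in unconfined cells (0.145% of all genes) and 0 in confined cells (2.59%). After confinement in WT 0 passed (1.16%), and for the interaction 0 (0%). At an unadjusted p under 0.05 there were 3 in the first of these (Vps37b, Lpin1 and Mitd1; 9.6% of all genes), 2 in the second (Usp8 and Ubap1; 16.8%), 4 in the third (Lpin1, Mitd1, Vps37b and Stam2; 12.2%) and 1 in the interaction (Mitd1; 2.07%). These counts are near or below the background, and the genes other than Vps37b were named after their values were seen. With edgeR 0 of 38 passed in the same 4 comparisons (0.12%, 2.56%, 0.931% and 0% of all genes). In the other 3 comparisons 1 of 38, Vps37b, passed with limma and with edgeR. The shares of all genes with limma and edgeR were 1.72% and 1.49% after confinement in WKO. They were 5.57% and 5.59% between genotypes and 6.21% and 6.29% after confinement in the averaged comparisons. With DESeq2 1 of 38, Vps37b, passed between genotypes in unconfined cells (1.44% of all genes). After confinement in WKO 1 of 38, Vps37b, passed (3.9%). Between genotypes with the conditions averaged, DESeq2 called 2 of 38, Vps37b and Usp8, against 9.21% of all genes. After confinement with the genotypes averaged, DESeq2 called 4 of 38, Vps37b, Vps37c, Ptpn23 and Lpin1, against 9.79%. These counts in the averaged comparisons are near or below the background. The median of the 38 was 0.01, 0.00, 0.01 and 0.02 on the log2 scale in the 4 comparisons named first and 0.04 after confinement in WKO.

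**Figure D5:**
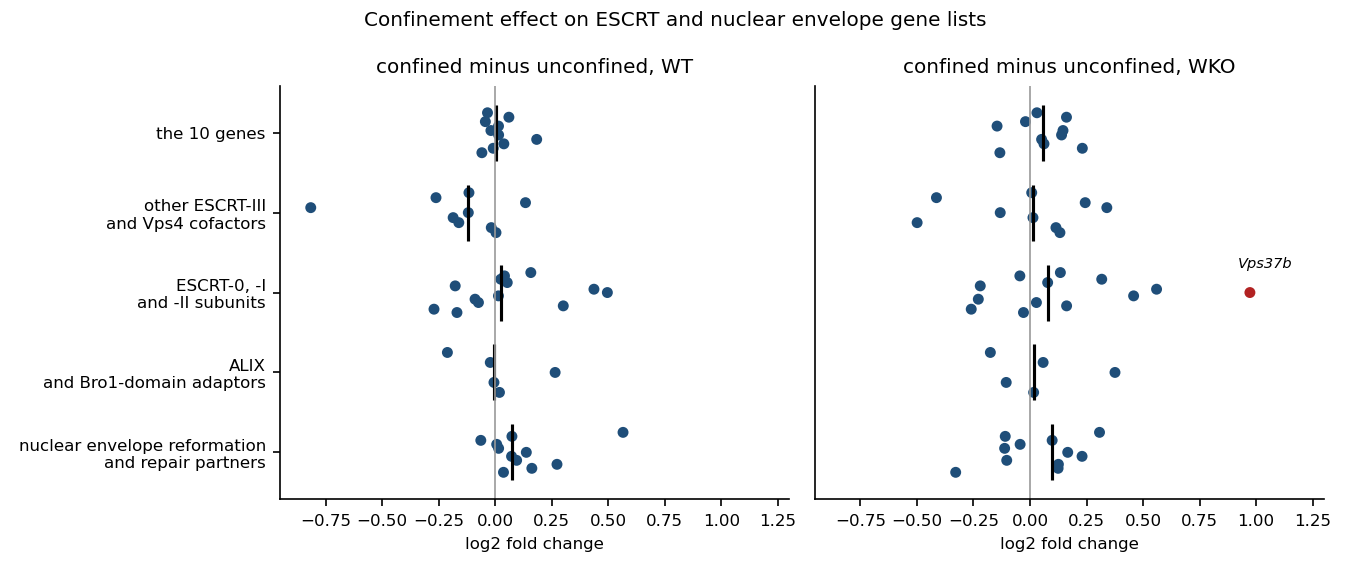
Log2 fold change after confinement (horizontal axis) in WT and in WKO cells for the 10 genes and 4 lists of related genes; points are genes, vertical bars are list medians, and red marks a limma adjusted p under 0.05. Vps37b in WKO at 0.97 is the only red point.

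Reads of some of these genes cannot be assigned with certainty. In GENCODE M21 4 of the 10 share 20% or more of their longest transcript with another gene (stretches of 100 bases or more, 95% identity or more). These are Chmp1a (Gm8515, 27.3%), Vps4b (Gm4939, 28.7%), Chmp3 (AC115302.1, 25.3%) and Chmp1b, where 24.0% of the exon bases overlap AC140336.1 on the opposite strand. Exons of Chmp3, Vps4a and Lemd2 also overlap those of other genes, over at most 2.95% of their bases.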

How the data were processed

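The values were deposited by the authors as 1 table with a normalized signal (scaled read counts) for each gene in each library. Per the submitters' processing notes, FastQC, Trim Galore, STAR and GRCm38 (mm10) were used; the counting tool, annotation and use of strand are not given in the sources used here. Per the labels' protocols, a kit for mRNA was used on 5 ng of RNA per library. In each library 100% of values were whole multiples of the value of 1 read (tolerance 1e-06 of the value), and division gave back the whole reads. Median-of-ratios size factors computed from them (DESeq2 1.42.0) differed from the deposited scaling by at most 2.78e-15 of their value. This scaling adjusts for depth, and leaves differences of composition and GC content in place. A count of 3 reads, taken as the detection floor, is a normalized read count of 2.35 to 3.59.

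The tests used log2(normalized read count + 1), which understates changes of low genes, with limma 3.58.1 in R 4.3.3: 1 mean per group, 10 libraries, 6 residual degrees of freedom, moderated variances with a mean-variance trend, and Benjamini-Hochberg adjustment over the 12455 genes of each contrast. Alternatives were other pseudocounts, filters and scalings, fits of only the groups compared, array weights, edgeR 4.0.16 and DESeq2 on the recovered reads (100% of values came out whole), a replicate block, a GC and length correction and leaving out each library. The code was tested on simulated data. GENCODE M21 (GRCm38) gave positions, lengths and GC content, found for 98.9% of tested genes, and blastn 2.17.0 gave shared sequence.

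The 10 genes were picked by symbol under a rule that uses no values, but the rule and the lists were written with earlier results of these data known. Named genes are the 10, Was, pathway genes passing in any contrast, and the 3 genes most correlated with Chmp7 and with Chmp4b; markers are given as list totals. Other pathway genes were named after their values were seen or as examples of a list. Replicate libraries differed by more than sampling noise (chi-square per degree of freedom of 7.56 to 78.3), so that each was counted.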

Additional observations from a re-analysis of the deposited data

How the results depend on the processing

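Each value was recomputed under 23 alternatives (22 for the interaction and the averaged comparisons). The number of the 10 genes passing stayed at 0 in 154 of 158 recomputed counts. In the other 4 it was 1: Chmp1b after confinement in WKO with array weights and without WKO confined replicate 1, with leave-one-out counts of 0 to 1, and Chmp2a between genotypes, conditions averaged, with array weights and with DESeq2. Deviations of libraries with the same replicate number had correlations of -0.11 to 0.08. In each unconfined group the deviations of both libraries mirror each other, so that this check is weak. Whether the number pairs libraries cannot be told from it. With the replicate number as a block (replicate block) 0 of the 10 passed in every comparison, and their median fold change between genotypes in confined cells was -0.01 in place of -0.09. Under that block Vps37b no longer passed with the conditions averaged (-0.41, limma adjusted p 0.105) or the genotypes averaged. Of 1580 recomputed fold changes of the 10 genes, 52 moved by more than their residual SD without passing; all lay between -0.39 and 0.43.

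Counts over all genes depended more on the fit. On the recovered reads, edgeR called 15 genes between genotypes in unconfined and 319 in confined cells, and 116 in WT and 186 in WKO after confinement. Between genotypes they ran from 4 to 245 against 18 in unconfined and from 53 to 1948 against 322 in confined cells. After confinement they ran from 20 to 455 against 144 in WT and from 33 to 1735 against 214 in WKO. Averaged, they ran from 169 to 1804 against 694 for genotype and from 288 to 2220 against 773 for confinement. The counts without WKO confined replicate 1 were the highest of the leave-one-out counts in 4 of the 6 (701, 1043, 1115 and 1807), and those without WKO confined replicate 5 in the other 2 (141 and 397). Upper-quartile scaling moved the median of all genes to -0.12 after confinement in WKO and to -0.10 averaged, and the share of higher calls from 77.1% to 63.6% in WT, from 86.4% to 75.4% in WKO and from 66.6% to 46.8% averaged. The cause was not tested. At this depth and number of libraries, differences of any size inside the 95% intervals of the 10 genes remain possible. The intervals of Chmp2a between genotypes, in confined cells and with the conditions averaged, did not hold 0.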
